A study of Mus musculus with 2 samples.

Results

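The proteasome genes described here were the 50 genes, of the 32285 listed in the count matrices, whose symbol begins with Psma, Psmb, Psmc, Psmd, Psme, Psmf or Psmg followed by a number. No measured value entered that choice. They comprised 7 alpha and 7 beta subunits of the 20S core (Psma1 to Psma7, Psmb1 to Psmb7), 6 ATPases (Psmc1 to Psmc6) and 11 other subunits of the 19S cap, 3 interferon-inducible beta subunits (Psmb8, Psmb9, Psmb10), the 2 subunits of the inducible PA28 activator (Psme1, Psme2), 2 other activators, 1 inhibitor, 7 assembly chaperones, 2 tissue-restricted subunits, 1 retrocopy and 1 gene that shares only the name. The 31 genes of the 20S core and the 19S cap are called constitutive below, and the 5 interferon-inducible genes are set against them. Of the 50 genes, 49 had a UMI (a counted RNA molecule) in both libraries, and together they held 0.913% of the UMIs of candidate cells in the normal diet library and 0.953% in the ketogenic one.

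Leukocytes came from MC38 tumors, grafts of a mouse colon adenocarcinoma line under the skin of the right flank of female C57BL/6J mice aged 6 to 8 weeks. All mice of both groups carried the tumor. The normal diet group stayed on its diet, and the ketogenic diet group received a ketogenic diet from day 4 after grafting until the end. At day 14 the tumors were collected and dead cells taken out, cells bearing the leukocyte marker CD45 were enriched with magnetic beads, and RNA was counted in single cells with the Chromium 3 prime chemistry. Each diet had 1 library from 5 pooled mice, so no difference between diets could be tested, and intervals (95%) cover counting error only.

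The proteasome is the barrel-shaped protease that degrades ubiquitin-tagged proteins. Its 20S core holds 3 catalytic beta subunits, encoded by Psmb6 (beta 1), Psmb7 (beta 2) and Psmb5 (beta 5), and the 19S cap recognises, unfolds and feeds in the substrate with its ring of ATPases. In immune cells and under interferon, newly built cores take up Psmb9 in place of Psmb6, Psmb10 in place of Psmb7 and Psmb8 in place of Psmb5, and this immunoproteasome cuts peptides that suit MHC class I molecules. PA28, a ring of Psme1 and Psme2 proteins, opens the core from its end and is also induced by interferon gamma.

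Promoter windows, from 250 bases before to 50 after a RefSeq start site on GRCm38.p6, were found for 42 of the 50 genes, including all 5 inducible genes. Interferon acts on DNA through the interferon-stimulated response element, searched here as GAAA, any 2 bases and GAAA again, on both strands, and the gamma-activated site, searched as TTCNNNGAA, which reads the same on both strands. The former occurred in 3.44% of the 32851 windows of all genes and, among the inducible genes, in Psme1 alone. The latter occurred in 8.30% of all windows and, among the inducible genes, in Psmb8 alone. The windows of 3 genes are printed with those matches in capitals, to show the promoters that carried a match and the one that overlaps the neighbour of Psmb9. The window of Psmb8 lies at chr17:34197945-34198244 (plus strand), Psmb9 at chr17:34187281-34187580 (minus strand) and Psme1 at chr14:55578244-55578543 (plus strand).
Psmb8: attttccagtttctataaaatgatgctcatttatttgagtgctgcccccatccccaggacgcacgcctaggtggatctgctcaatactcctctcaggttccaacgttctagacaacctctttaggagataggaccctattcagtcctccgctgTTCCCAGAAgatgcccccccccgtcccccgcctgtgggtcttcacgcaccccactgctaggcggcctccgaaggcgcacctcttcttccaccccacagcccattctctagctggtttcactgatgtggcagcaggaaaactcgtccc
Psmb9: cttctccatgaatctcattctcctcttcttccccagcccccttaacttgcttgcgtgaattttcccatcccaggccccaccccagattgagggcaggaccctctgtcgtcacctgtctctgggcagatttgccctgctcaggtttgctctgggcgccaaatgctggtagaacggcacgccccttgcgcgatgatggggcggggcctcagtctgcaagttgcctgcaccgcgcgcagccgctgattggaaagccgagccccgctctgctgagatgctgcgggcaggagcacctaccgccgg
Psme1: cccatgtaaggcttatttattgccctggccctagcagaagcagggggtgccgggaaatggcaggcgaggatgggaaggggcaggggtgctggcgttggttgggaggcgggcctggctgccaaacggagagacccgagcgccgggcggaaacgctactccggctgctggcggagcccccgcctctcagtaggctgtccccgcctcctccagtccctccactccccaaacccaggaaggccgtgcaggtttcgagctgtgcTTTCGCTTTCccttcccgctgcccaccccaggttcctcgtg
The match in Psmb8 (TTCCCAGAA) began 97 bases before the start site, and that in Psme1 (TTTCGCTTTC) at base 10 of the transcript. Psmb9 and Tap1, which encodes a subunit of the transporter that carries peptides into the endoplasmic reticulum, face away from each other on chromosome 17, and their GENCODE gene models overlap at their starts by 212 bases. The RefSeq starts of Psmb8, Psmb9 and Psme1 lay 474, 434 and 371 bases from the outermost GENCODE starts, so other start sites have other windows. An antioxidant response element core (TGACNNNGC, both strands), tied to constitutive proteasome genes in the literature on the factors Nfe2l1 and Nfe2l2, occurred in 12.4% of all windows, in 4 of the 25 constitutive genes found, among them Psmb5 and Psmb6, and in none of the 5 inducible ones. Psmb7 was not in the table.

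Barcodes with at least 500 UMIs and 300 genes numbered 5671 in the normal diet and 5944 in the ketogenic diet library, with medians of 4200 and 3922 UMIs, and 7 barcodes occurred in both. They were assigned to classes by marker genes, no proteasome gene among them, and names such as monocyte stand for monocyte-like cells by those markers. Of the classes with a named cell type, 8 held at least 50 cells in each library, called large below, with cell numbers in the order normal and ketogenic: monocyte 1295 and 1209, intermediate monocyte-macrophage 315 and 145, macrophage 755 and 296, neutrophil 163 and 117, NK 1060 and 1827, CD8 T 354 and 400, other T 154 and 224, and non-immune cells with Rhox5 67 and 102. The last class was gated on tumor genes, but Krt8, Krt18 and Cldn4 of that list were at 0, the list of stromal markers placed as many genes (2) among its leading 10 as the tumor list, and CD45 itself (Ptprc) was at 27.1 and 19.3 CPM, so it is named by Rhox5, its leading gene. Its cells had medians of 31303 and 30839.5 UMIs, against 969 and 1176 in neutrophils and 4668 and 3687 in NK cells. A further 6 named classes held at least 20 cells in each library. Barcodes with T and NK markers that could not be resolved (63 and 118), other myeloid (50 and 37) and unclassed barcodes (163 and 150) and those of more than 1 lineage (1003 and 1022) were left out. Levels are counts scaled to 1e6 UMIs of the class (CPM), and paired values are in the order normal and ketogenic diet.

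Psmb8, the beta 5 immunosubunit, was highest in CCR7 dendritic cells, which carry antigen to lymph nodes, at 1791 CPM (1632 to 1960.1) and 2149.5 CPM (1901 to 2422). Among the large classes T cells and monocytes had the highest levels, with 1137 and 1113 CPM in CD8 T cells, 1162 and 1137 in other T cells and 1048 and 1059 in monocytes. Macrophages had 931 and 917 CPM, NK cells 768 and 854 and neutrophils 766 and 784. The Rhox5 class had 416 CPM (389 to 444) and 498 CPM (475 to 522), below each of the other 7 large classes in both libraries. In both libraries the intervals of NK cells and neutrophils overlapped, as did those of the 2 T cell classes.

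Psmb9, the beta 1 immunosubunit, was also highest in CCR7 dendritic cells. CCR7 dendritic cells had 732 and 924 CPM, monocytes 446 and 444, macrophages 406 and 416, CD8 T cells 393 and 482 and NK cells 293 and 341. The lowest large class was again the Rhox5 class, at 163 CPM (146 to 181) and 265 CPM (248 to 282). Psmb10, the beta 2 immunosubunit, did not share that low: the Rhox5 class had the highest Psmb10 level of the 14 classes in both libraries, at 615 CPM (582 to 649) and 616 CPM (590.3 to 642). Monocytes followed among the large classes with 492 and 432 CPM, and CD8 T cells (279 and 288), NK cells (258 and 262) and neutrophils (206 and 269) were low.

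**Figure D1:**
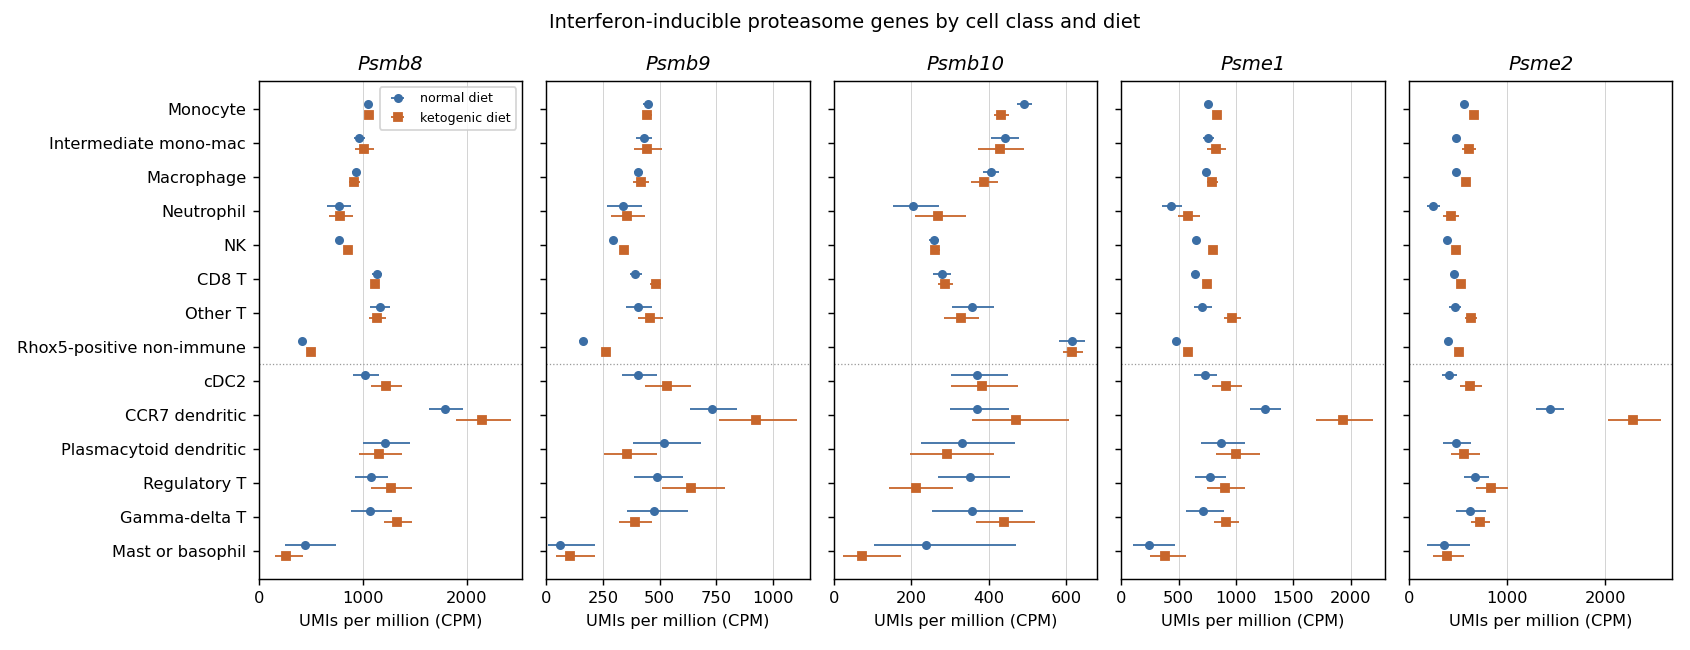
Level of each of the 5 inducible genes (horizontal axis, CPM of the class) in 14 cell classes (vertical axis), with circles for the normal diet and squares for the ketogenic diet library and bars for exact Poisson 95% intervals; classes under the dotted line have fewer than 50 cells in 1 library or both. CCR7 dendritic cells lie apart for Psmb8, Psmb9, Psme1 and Psme2, and the Rhox5-positive class has the highest Psmb10 and low Psmb8 and Psmb9.

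Both PA28 genes, Psme1 and Psme2, were highest in CCR7 dendritic cells as well. Psme1 stood at 1249.7 CPM (1118 to 1392) and 1935 CPM (1699 to 2194) there, and between 239 and 868 CPM in the other 13 classes of the normal diet library. Psme2 stood at 1433 CPM (1291 to 1585) and 2285 CPM (2028 to 2565) there, against at most 676 and 834 in any other of the 14 classes. Against the median of the other 13 classes, with 10 CPM added, 1 of the 5 inducible genes (Psme2) was at least 2-fold higher in CCR7 dendritic cells of the normal diet library, where 13.1% of all genes with a mean of 50 CPM were. In the ketogenic diet library 4 of 5 were (all but Psmb10), against 12.0% of all genes. None of the 31 constitutive genes reached 2-fold there in either library, and Psmg4, a chaperone of 20S assembly, did in both (202 and 287 CPM). These values rest on 57 and 42 cells.

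Among the 8 large classes the PA28 genes were lowest in neutrophils. Psme1 ranged from 432 CPM in neutrophils to 758 in monocytes of the normal diet library, and Psme2 from 248 to 560.5 in the same classes. The 5 inducible genes summed differed 1.66-fold and 1.46-fold between the highest and the lowest large class, and 4.15-fold and 6.40-fold once the 6 smaller classes were included, in which mast cells or basophils were lowest. None of the 5 reached a 3-fold range over the 8 large classes, while 64.1% and 57.9% of all genes with a mean of 50 CPM did. Over the 14 classes 4 and 5 of the 5 reached it, beside 83.6% and 79.3% of all genes. The small range of the inducible genes thus holds for the large classes only.

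The balance between each immunosubunit and its constitutive counterpart was read as the inducible share of the pair's UMIs. Because 3 prime capture differs between genes, this share serves to compare classes and libraries and is not a ratio of molecules. The 3 pairs summed gave 78.1% and 75.3% in monocytes, 75.2% and 75.4% in intermediate cells and 70.0% and 68.5% in macrophages, so macrophages had the lowest share of these 3 myeloid classes in both libraries. CD8 T cells had 76.0% and 75.5%, other T cells 79.0% and 78.1% and NK cells 70.0% and 70.6%. Neutrophils had 82.9% (78.7 to 86.6) and 76.3% (72.1 to 80.1), the largest gap between libraries among the immune large classes, with overlapping intervals. The former was the highest share of the 14 classes in the normal diet library. Its interval overlapped those of other classes, among them CCR7 dendritic cells (81.4%, 78.8 to 83.9). CCR7 dendritic cells had the highest share in the ketogenic diet library (84.1%, 80.7 to 87.1). In the Rhox5 class the share was 51.3% (49.9 to 52.7) and 56.4% (55.4 to 57.4), below the other 7 large classes. Barcodes with at most 100 UMIs, which hold free RNA, gave 73.2% and 74.1%, within the range of the immune classes.

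The pairs differed in which class set them apart. Macrophages stood lowest of the immune large classes for the beta 1 pair: Psmb9 made up 54.2% and 53.2% of Psmb9 and Psmb6, against 67.2% and 66.6% in monocytes, and Psmb6 itself was 344 and 367 CPM in macrophages and 218 and 223 in monocytes. In the Rhox5 class, Psmb8 made up 44.5% and 49.6% of its pair and Psmb9 29.9% and 43.7%, while Psmb10 made up 72.5% and 73.8%, inside the range of the immune classes. There Psmb5 (518 and 506 CPM), Psmb6 (380.4 and 341) and Psmb7 (233 and 218) were all above their levels in monocytes (229.6 and 296, 218 and 223 and 109 and 114). CCR7 dendritic cells had the highest share of the beta 5 pair of the 14 classes in both libraries, 87.9% and 86.5%.

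**Figure D2:**
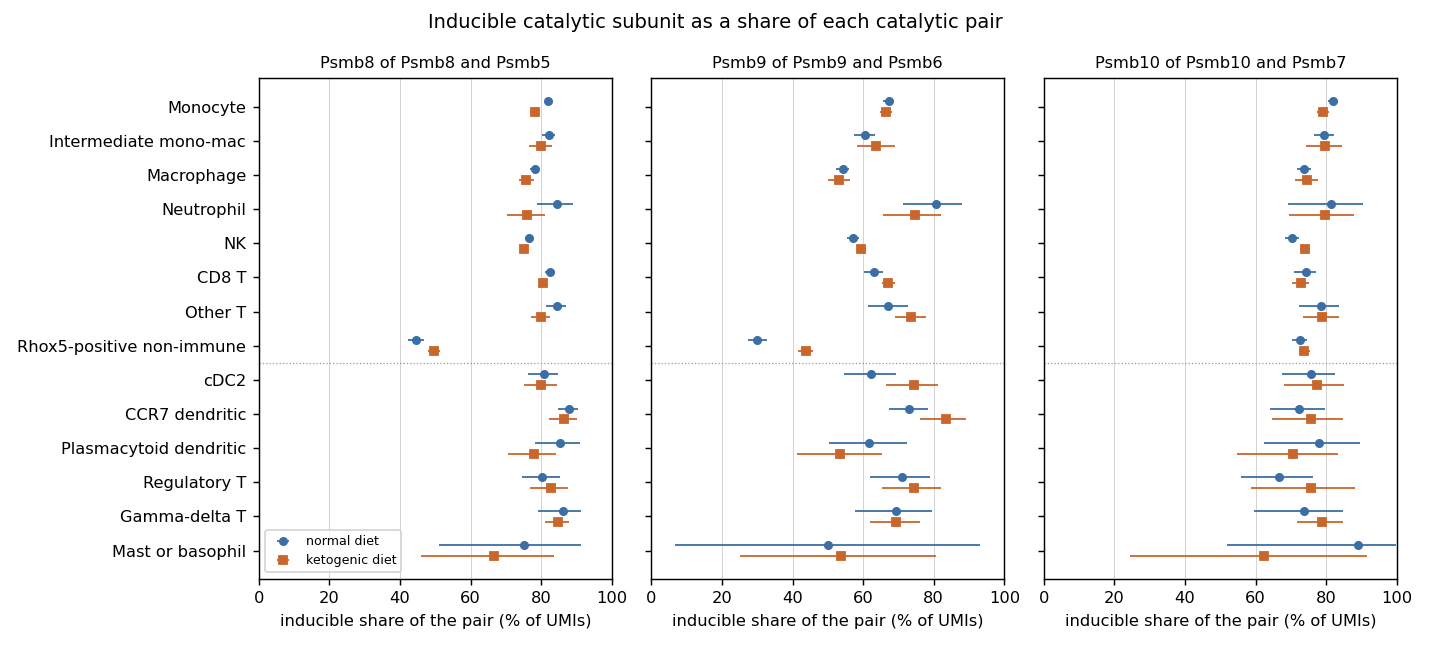
Inducible share of each catalytic pair (horizontal axis, % of the UMIs of both genes) in 14 cell classes (vertical axis), with circles for the normal diet and squares for the ketogenic diet library and bars for exact Clopper-Pearson 95% intervals. The Rhox5-positive class lies apart for the Psmb8 and Psmb9 pairs but not for the Psmb10 pair.

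Constitutive subunits had another class order than the inducible ones. Summed over the 31 genes they were highest in the Rhox5 class (8861 and 9064 CPM), followed among the 14 classes by macrophages (6589.5 and 7018), and lowest of the large classes in neutrophils (2578 and 3827), a 3.44-fold and 2.37-fold range. Monocytes (5581 and 6023), CD8 T cells (5319 and 5621) and NK cells (5221 and 5482) lay close together. With 10 CPM added, a range of at least 3-fold over the 8 large classes was reached by 21 of the 31 genes under the normal and by 7 under the ketogenic diet. As shares these are 67.7% and 22.6%, beside the 64.1% and 57.9% of all genes given above. Over these 8 classes the constitutive genes thus stood near the background in the normal and below it in the ketogenic diet library. Over the 14 classes 27 and 22 of the 31 reached 3-fold, or 87.1% and 71%, beside 83.6% and 79.3% of all genes.

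Subunits of the 19S cap led that range. Psmd7, a non-catalytic subunit of the lid that partners the deubiquitinase Psmd14, was at 529 and 466 CPM in the Rhox5 class, 183 and 167 in macrophages, 99.6 and 97.8 in monocytes and 34.3 and 64.3 in neutrophils. Psmc6, an ATPase of the base ring, was at 358 and 309, 132 and 129.6, 104 and 87.8 and 34.3 and 60.3 CPM in the same classes. Psmd1, the large scaffold of the base, was at 234 and 212 CPM in the Rhox5 class and 104 and 93.4 in macrophages, and in monocytes it was 50.7 and 47.2. These 3 had the largest ranges of the 31 in the normal diet library. In the ketogenic diet library Psmd2, a base scaffold that also binds ubiquitin-like domains (160.3 and 157 CPM in the Rhox5 class, 47.1 and 28.1 in neutrophils), stood with Psmd7 and Psmc6 among the 3 largest. At the other end, Psmd13, a lid subunit, kept between 85.6 and 141 CPM and between 76.4 and 144. Next in the normal diet library were the core subunits Psma1 (107 to 241 CPM) and Psma3 (176 to 404). In the ketogenic diet library the smallest ranges were those of Psma4 (189 to 328 CPM), Psmb3 (281 to 492) and Psmd13.

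Against the median of the other 13 classes, 8 and 6 of the 31 constitutive genes were at least 2-fold higher in the Rhox5 class, where 14.5% and 14.3% of all genes were. The 6 genes in both counts were Psmc5, Psmc6, Psmd1, Psmd3, Psmd7 and Psmd12, each of them of the 19S cap. Of the inducible genes Psmb8 was at least 2-fold lower there in both libraries and Psmb9 in the normal diet library, where 27.6% and 24.9% of all genes were lower. In neutrophils 21 and 6 of the 31 constitutive genes were at least 2-fold lower, against 24.3% and 17.4% of all genes, and none of the 5 inducible ones. Neutrophils had the lowest depth of the large classes, and the depth of the Rhox5 class was the highest. With each cell thinned to 1000 UMIs, which leaves out shallower cells, the range of the constitutive sum was 3.85-fold and 2.77-fold.

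**Figure D3:**
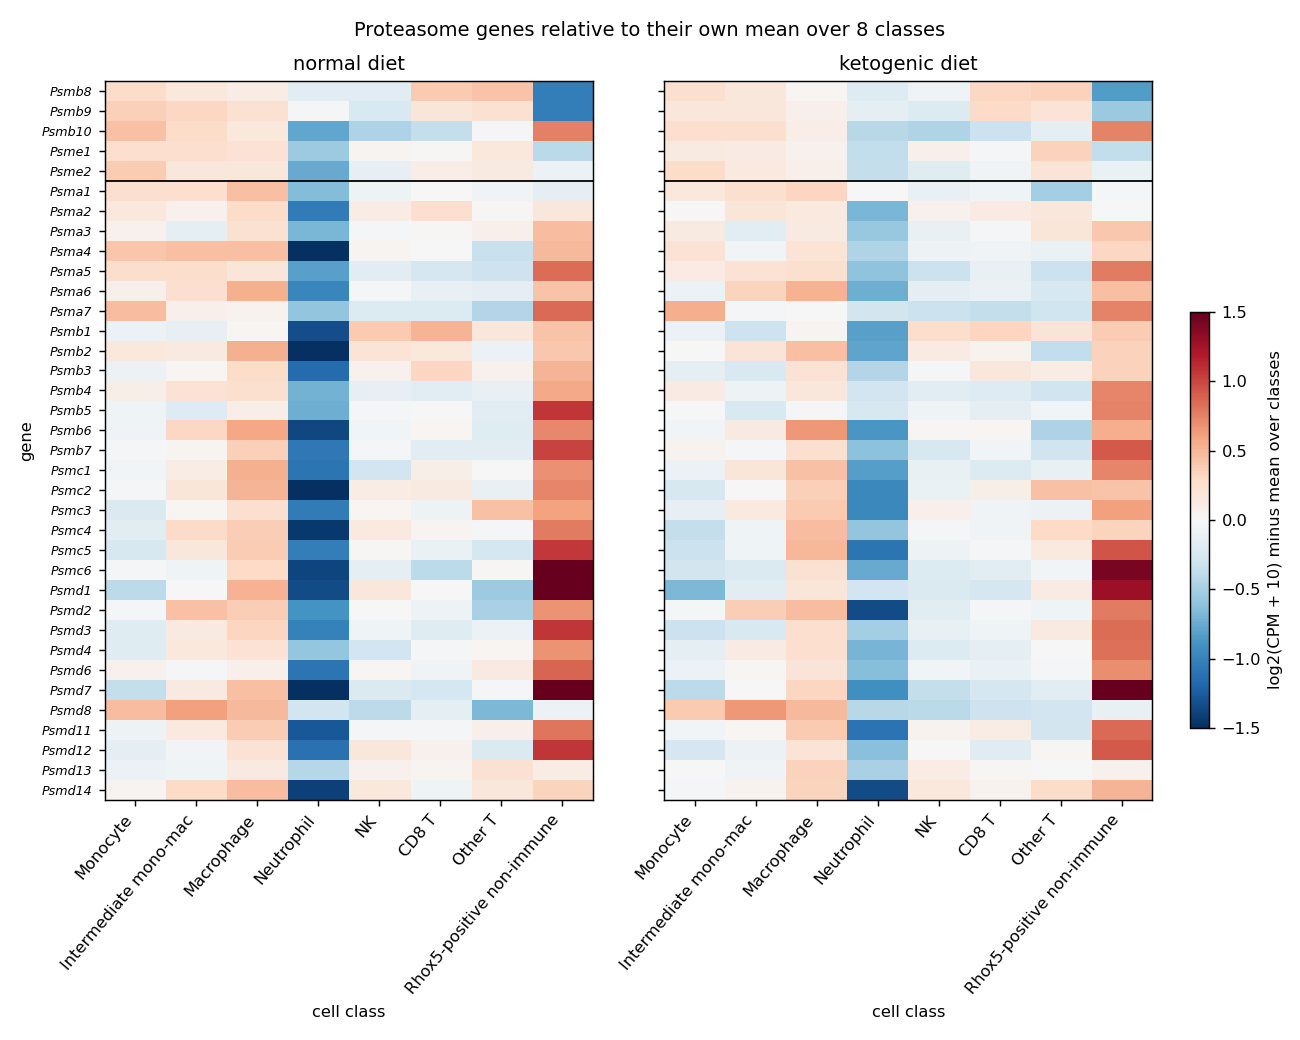
Difference of each gene's log2(CPM + 10) from its own mean over the 8 large classes (colour, cut at 1.5 either way), with genes as rows (the 5 inducible above the line, the 31 constitutive below), classes as columns and 1 panel per library. The column of the Rhox5-positive class is high for most 19S genes and low for Psmb8 and Psmb9, and the neutrophil column is low for most constitutive genes.

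The remaining members were sparser. Psme3, which encodes the nuclear activator PA28 gamma, had 68.2 and 54.7 CPM in the Rhox5 class and 31.2 and 27.7 in monocytes. Psme4, the activator PA200, had 86.5 and 61.7 CPM in the Rhox5 class, 63.5 and 83.6 in intermediate cells and 67.7 and 54.8 in monocytes, and was low in NK cells (23.2 and 17.9). Psmf1, the inhibitor PI31, stood between 4.28 and 44.4 CPM over the large classes of the normal diet library. In mast cells or basophils of that library it was 0. The chaperones of 20S assembly Psmg1 (64.5 and 58.9 CPM) and Psmg2 (47.7 and 53.3), which act as a pair, were highest among large classes in the Rhox5 class, and there too Psmg3 (82.7 and 79.3), the partner of Psmg4, was highest. NK cells had more Psmg2 (36.5 and 40.2 CPM) than monocytes (7.21 and 9.48). The chaperones of 19S assembly Psmd5, Psmd9 and Psmd10 summed to 234 and 225 CPM in the Rhox5 class and 80.3 and 89.0 in monocytes.

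Psmb11, the thymus-specific catalytic subunit, had 0 UMIs, which allows a share of cells with a UMI of up to 0.0529% in the normal and 0.0505% in the ketogenic diet library. Psma8, the testis-specific alpha subunit, had 10 and 7 UMIs in all candidate cells. Psmc3ip, a recombination factor that is no proteasome subunit, had 42.1 and 34.3 CPM in the Rhox5 class and 0.801 and 0.231 in monocytes. Psme2b, a retrocopy of Psme2 on chromosome 11 that lies inside the model of Gm12185 on the same strand, had 98.5 and 56.3 CPM in neutrophils, 50.1 and 33.1 in monocytes and 3.74 and 7.82 in the Rhox5 class. Reads may be split between Psme2b, Psme2 and Gm12185, so its values are uncertain.

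Between diets, Psme1 and Psme2 were the only members higher in the ketogenic diet library in 14 of 14 classes, large and small. Psme1 was 653 and 801 CPM in NK cells, 643 and 747 in CD8 T cells, 708 and 967 in other T cells, 758 and 835 in monocytes and 737 and 795 in macrophages. Psme2 was 392 and 480.2, 457 and 527, 469 and 628, 560.5 and 666 and 482 and 577 CPM in the same classes. Of all genes with a mean of 50 CPM, 1.88% were higher in all 14 classes. The classes of a diet share 1 library, so these are not 14 independent observations.

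The size was modest. The log2 ratio of ketogenic over normal for the 2 genes summed was 0.29 (0.25 to 0.34) in NK cells, 0.21 (0.14 to 0.28) in CD8 T cells, 0.19 (0.14 to 0.24) in monocytes and 0.17 (0.090 to 0.25) in macrophages. Other T cells (0.44, 0.29 to 0.59) and neutrophils (0.57, 0.28 to 0.86) had the largest ratios of the 8 large classes, and the Rhox5 class had 0.32 (0.24 to 0.40). The median ratio of all genes measured, those with at least 50 UMIs in the class, lay between -0.10 and 0.0018. Psme2 with its retrocopy added was still higher in each of the 8, by a log2 ratio of 0.19 to 0.48. In CCR7 dendritic cells, with 57 and 42 cells, Psme2 was 1433 and 2285 CPM.

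Values of the library as a whole moved with this difference. Barcodes with at most 100 UMIs held Psme1 at 711 and 966 CPM and Psme2 at 387 and 559, so the free RNA differed the same way. Subtracting that profile at 5% of each class left the ratio of the 5 inducible genes summed within its counting interval in all 8 classes. The 5% was a fixed setting and not an estimate of the free RNA. That sum also holds Psmb8, Psmb9 and Psmb10, so the part of free RNA in the Psme1 and Psme2 difference was not tested. The 77 ribosomal protein genes summed were also higher in the ketogenic diet library in the 8 large classes, by a log2 ratio of 0.057 in NK cells to 0.47 in neutrophils. Their ratio was above that of the PA28 genes in monocytes (0.27, against 0.19), macrophages (0.175, against 0.171) and intermediate cells (0.31, against 0.22). In the other large classes it was below. The 20S core genes summed had a higher ratio than the PA28 genes in neutrophils (0.68, against 0.57). Elsewhere among the large classes theirs was lower, with 0.17 against 0.19 in monocytes. Mitochondrial genes were 24408 and 16662 CPM in NK cells and 21578 and 14328 in monocytes. The part of these sets in the result was not tested.

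The 3 inducible catalytic genes differed less. Summed, they had a log2 ratio of -0.037 (-0.080 to 0.0047) in monocytes, -0.018 (-0.088 to 0.052) in macrophages, -0.00073 (-0.13 to 0.13) in other T cells and 0.058 (0.00033 to 0.12) in CD8 T cells. NK cells (0.14, 0.10 to 0.18) and the Rhox5 class (0.21, 0.14 to 0.28) had larger ratios. Psmb8 in monocytes was 1048 and 1059 CPM and Psmb10 492 and 432, the latter lower in the ketogenic diet library (log2 ratio -0.19, -0.28 to -0.10). Psmb9 in CD8 T cells was 393 and 482 CPM (log2 ratio 0.29, 0.17 to 0.42).

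Psmb9 in the Rhox5 class was 1 of 2 inducible values at least 1.5-fold apart between diets, with Psme2 in neutrophils (248 and 426 CPM). In the Rhox5 class 1.33% of all genes measured were at least 1.5-fold higher and 2.13% lower, and in neutrophils 14.7% were higher. Psmb9 there was at 163 and 265 CPM. Its log2 ratio was 0.70 (0.52 to 0.88), from 348 and 948 UMIs, and the cell with the most held 4.31% and 4.11% of them. Psmb8 there had 416 and 498 CPM (log2 ratio 0.26, 0.14 to 0.38) and Psmb10 615 and 616 (log2 ratio 0.0019, -0.10 to 0.10). The 10 type I interferon genes described below summed to 1839 and 1823 CPM in this class and 10 cell cycle genes to 2211 and 2159.6.

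**Figure D4:**
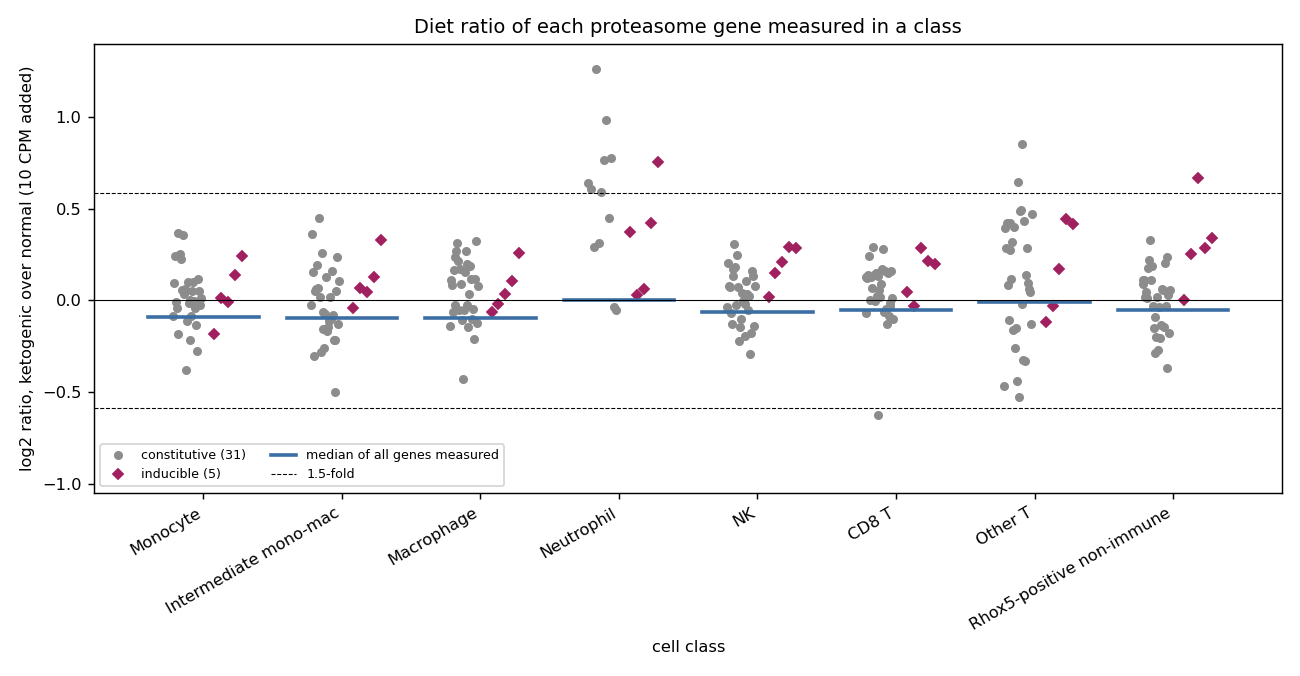
Log2 ratio of ketogenic over normal diet, with 10 CPM added (vertical axis), of each constitutive gene (grey circles) and inducible gene (diamonds, in the order Psmb10, Psmb8, Psmb9, Psme1, Psme2 from left to right) that had at least 50 UMIs in a class (horizontal axis); the line in each class is the median of all genes measured there, and dashed lines mark 1.5-fold. Psme1 and Psme2 lie above 0 in each class, and neutrophils have the highest constitutive ratios.

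The 20S core and the 19S cap differed in their diet ratios, a difference with no test. Among the large classes their intervals lay apart in monocytes, NK cells, CD8 T cells and the Rhox5 class only. Core genes (Psma1 to Psma7 and Psmb1 to Psmb7) summed to 3838 and 4309 CPM in monocytes, 4225 and 4578 in macrophages, 3476 and 3754 in NK cells, 3592 and 3886 in CD8 T cells and 5298 and 5663 in the Rhox5 class. They were higher in the ketogenic diet library in all 8 large classes, with a log2 ratio of 0.17 (0.14 to 0.20) in monocytes, 0.11 (0.086 to 0.14) in NK cells and 0.069 (-0.0076 to 0.15) in intermediate cells, whose interval reached 0. The 17 genes of the 19S cap had 1744 and 1713 CPM in monocytes, 1745 and 1728 in NK cells, 1727 and 1736 in CD8 T cells and 3563 and 3400.3 in the Rhox5 class. Their log2 ratio was -0.025 (-0.070 to 0.020), -0.014 (-0.049 to 0.022), 0.0071 (-0.053 to 0.067) and -0.068 (-0.11 to -0.026). Neutrophils were the 1 large class in which the interval of the 19S sum lay above 0 (0.31, 0.035 to 0.58). It overlapped that of the core there (0.68, 0.50 to 0.86). Intervals of core and cap also overlapped in macrophages (0.12, 0.072 to 0.16, and 0.045, -0.014 to 0.10). The same held in other T cells (0.20, 0.10 to 0.29, and 0.13, -0.0044 to 0.26) and intermediate cells (cap -0.045, -0.15 to 0.060).

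Higher in all 8 large classes were 6 core genes, Psma2, Psma3, Psma7, Psmb1, Psmb2 and Psmb3, of which Psmb2 did not reach 50 UMIs in each class. Psma7, an alpha subunit, was 694 and 897 CPM in monocytes, 431 and 487 in NK cells and 518 and 613 in macrophages, and Psmb2, a non-catalytic beta subunit, was 199 and 239, 207 and 259 and 262 and 327. Among all genes measured in each of the 8, 19.5% were higher in all of them and 12.4% lower. Psmd6, of the 19S lid, was the only cap gene among the 31 higher in all 8 (88.9 and 92.7 CPM in monocytes), and in 7 of 8 after centring on the median gene. It had 8 and 15 UMIs in neutrophils, too few to count as measured. Psmc1, an ATPase of the base ring, was the only member lower in all 8. It was 70.9 and 42.4 CPM in CD8 T cells, 100.0 and 71.8 in macrophages, 64.1 and 46.9 in monocytes and 52.1 and 46.2 in NK cells, and its log2 ratio was -0.74 (-1.08 to -0.40) in CD8 T cells and -0.17 (-0.39 to 0.038) in NK cells. Psmc1 had only 6 UMIs in neutrophils of each library, too few to count as measured.

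In neutrophils 7 of the 12 constitutive genes measured were at least 1.5-fold higher in the ketogenic diet library, where 14.7% of all genes were higher and 14.2% lower. The 7 were the core genes Psma1 (107 and 173 CPM), Psma2 (128 and 201), Psma4 (72.8 and 189), Psma7 (329.7 and 502), Psmb1 (107 and 189), Psmb3 (137 and 281) and Psmb5 (141 and 249). Psma4, an alpha subunit, had the largest log2 ratio, 1.38 (0.55 to 2.27), from 17 and 47 UMIs. The 31 genes summed had a log2 ratio of 0.57 (0.42 to 0.72). The neutrophil classes of both libraries also differed in other markers: the 8 monocyte markers summed to 5519 and 10194 CPM, the 8 pan-myeloid markers to 15424 and 22366 and the 9 neutrophil markers to 66974 and 59344, with none of the 9 at 0. Monocyte levels of the 7 genes lay above their neutrophil levels in the normal diet library. The part of other cells in the neutrophil result was not tested.

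Outside neutrophils few members were 1.5-fold apart. In macrophages Psme4 (51.8 and 27.8 CPM) and the retrocopy Psme2b (32.3 and 13.9 CPM) were lower and no member was higher, where 5.57% of all genes were lower and 1% higher. In CD8 T cells Psmc1 alone was lower and no member higher, against 1.44% and 0.823% of all genes. In other T cells Psmd1 (44.8 and 89.1 CPM) and Psmc2, an ATPase (74.6 and 122), were higher and none lower, against 4.29% and 5.35%. Monocytes, intermediate cells and NK cells had none, where 0.581%, 2.07% and 0.202% of all genes were higher and 2.87%, 10.1% and 0.755% lower.

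Genes that work with the proteasome were read from 3 further lists. Of 18 partners (assembly, ubiquitin shuttle and transcription factor genes), Ngly1, the glycanase that activates Nfe2l1, was at least 1.5-fold lower in macrophages (19.7 and 8.49 CPM), and Usp14, a deubiquitinase of the 19S cap, was higher in other T cells (34.1 and 58.9). No other partner passed 1.5-fold in a large class. Of 12 peptide-loading genes, Tap2 (85.6 and 145 CPM) and Pdia3 (89.9 and 189) were higher in neutrophils, Pdia3 was higher (266 and 409) and Tapbp lower (413 and 251) in other T cells, and Nlrc5, an activator of MHC class I genes, was lower in intermediate cells (71.4 and 39.7). Of 11 interferon gamma signaling genes, Irf8 was lower in macrophages (355 and 213 CPM) and other T cells (303 and 165), Ciita in monocytes (46.3 and 14.8) and Jak1 in intermediate cells (201 and 127). Among genes measured, that was 1 of 17 partners and 1 of 10 interferon gamma genes in macrophages, where 5.57% of all genes were lower, 1 of 10 interferon gamma genes in monocytes (2.87%) and 1 of 11 loading and 1 of 9 interferon gamma genes in intermediate cells (10.1%). In neutrophils 2 of 8 loading genes were higher, beside 14.7% of all genes. In other T cells 1 of 10 partners and 1 of 12 loading genes were higher (4.29%) and 1 of 12 loading and 1 of 9 interferon gamma genes lower (5.35%). These are counts of 1 or 2 genes, and nothing is read from them about a list.

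Within a class, members were also read against the cells' own interferon state. Cells with at least 1000 UMIs were split into tertiles by the summed CPM of 10 type I interferon genes, among them Isg15, Ifit1 and Rsad2. In monocytes the 5 inducible genes summed to 2442, 3496 and 3936 CPM from the lowest to the highest tertile of the normal diet library and 2327, 3585 and 4285 in the ketogenic one. In macrophages the sums were 2357, 3015 and 3525 CPM under the normal and 2433, 3278 and 3636 under the ketogenic diet. In NK cells they were 2087, 2312 and 2776 CPM under the normal and 2393, 2714 and 3095 under the ketogenic diet. In each of these 3 classes and both libraries the sum was higher with each tertile.

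The constitutive sum did not follow. It was 5842, 5624 and 5283 CPM over the tertiles of monocytes in the normal diet library and 5949, 6173 and 5957 in the ketogenic one. In macrophages it was 6967, 6548 and 6263 CPM under the normal and 7040, 7341 and 6675 under the ketogenic diet. NK cells had 5389, 5197 and 5064 CPM under the normal and 5606, 5562 and 5308 under the ketogenic diet. In the normal diet library it was thus lower with each tertile in each of these classes. The inducible share of the 3 pairs differed by 12.78 and 14.21 percentage points between the highest and the lowest tertile of monocytes, 10.98 and 11.16 of macrophages and 9.69 and 9.31 of NK cells. That spread within a class is larger than the difference between the libraries within any of these 3 classes.

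Psmb9 had the largest ratio of the inducible genes between the highest and the lowest tertile in monocytes, with a log2 ratio of 0.94 (0.78 to 1.11) and 1.14 (0.95 to 1.32), and in NK cells, with 0.70 (0.54 to 0.87) and 0.72 (0.59 to 0.86). Psme2 had the smallest in NK cells, with 0.24 (0.10 to 0.38) and 0.088 (-0.021 to 0.20). At least 1.5-fold higher in the highest tertile of monocytes were 4 of 5 inducible genes (all but Psme2) under the normal diet and 5 of 5 under the ketogenic diet, against 10.9% and 13.4% of all genes. In macrophages 3 (Psmb9, Psmb10 and Psme1) and 2 (Psme1 and Psme2) of 5 were, against 9.47% and 13.9%, and in NK cells Psmb9 alone in both, against 7.66% and 5.41%. No inducible or constitutive gene was at least 1.5-fold lower in the highest tertile of NK cells, where 2.16% and 0.497% of all genes were.

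In monocytes a smaller share of the 31 constitutive genes passed the same mark upward than of all genes (10.9% and 13.4%). None passed in macrophages or NK cells, and in monocytes of both libraries the only 1 was Psma5, an alpha subunit. It was 161 CPM in the lowest and 271 in the highest tertile of the normal diet library, and 161 and 248 in the ketogenic one, log2 ratios of 0.75 (0.53 to 0.98) and 0.62 (0.38 to 0.87). In macrophages its log2 ratio was 0.33 (0.073 to 0.59) and 0.58 (0.14 to 1.03), and in NK cells 0.025 (-0.20 to 0.25) and 0.26 (0.058 to 0.45). Lower by at least 1.5-fold in the highest tertile were Psmd7 in monocytes and Psmd1 in macrophages of the normal diet library, and Psmd1 and Psmd12 in macrophages of the ketogenic one, where 21.1%, 10.9% and 13.8% of all genes were lower. Psma5 was not at least 1.5-fold apart between diets in any large class.

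The libraries were also compared within tertiles. In the lowest tertile of monocytes the 10 interferon genes summed to 2627 and 1212 CPM and the 5 inducible genes to 2442 and 2327, both lower in the ketogenic diet library, with overlapping intervals for the inducible genes. In the highest tertile of monocytes the 10 interferon genes summed to 23899 and 18560.0 CPM, lower in the ketogenic diet library, and the 5 inducible genes to 3936 and 4285, higher there. In the highest tertile of macrophages the values were 16499 and 11314 CPM for the interferon genes and 3525 and 3636 for the inducible genes, whose intervals overlapped. NK cells had inducible sums of 2087 and 2393, 2312 and 2714 and 2776 and 3095 CPM from the lowest to the highest tertile. These were higher in the ketogenic diet library in each tertile, with intervals apart. Their interferon genes were lower there, at 152 and 47.9, 726 and 492 and 3381 and 3073 CPM. Median depth differed little between tertiles in monocytes (3481, 3592 and 3507 UMIs in the normal diet library) and more in NK cells (5419.5, 5138 and 4048).

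**Figure D5:**
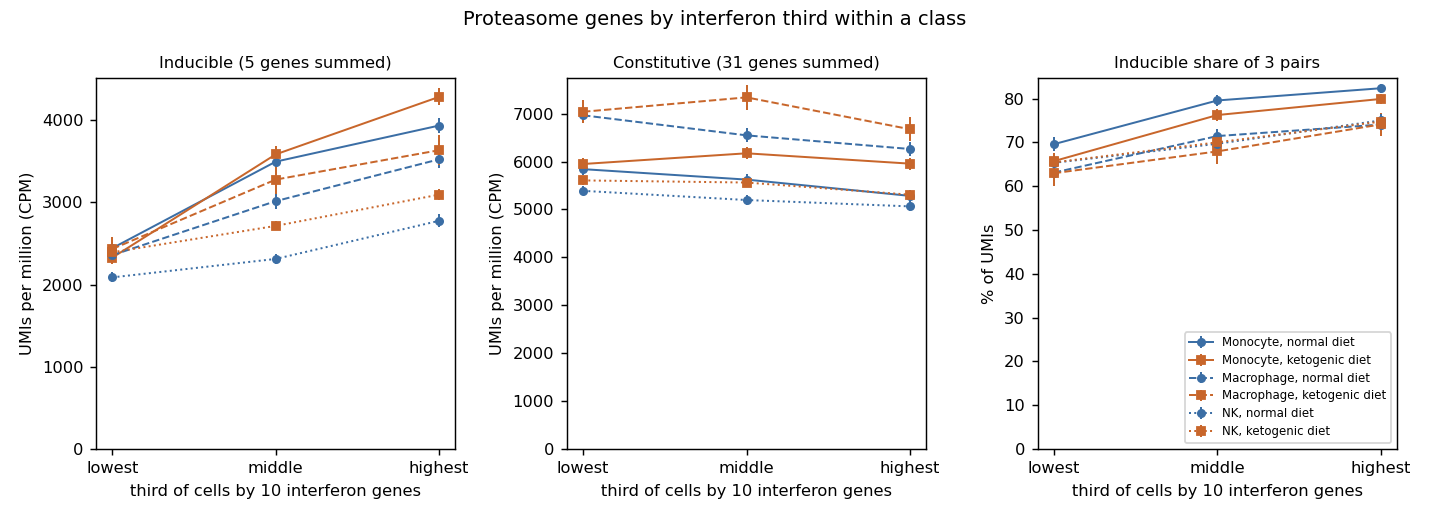
Summed level of the 5 inducible genes and of the 31 constitutive genes (CPM) and inducible share of the 3 catalytic pairs (% of UMIs) in the lowest, middle and highest tertile of cells by 10 interferon genes (horizontal axis), for monocytes (solid), macrophages (dashed) and NK cells (dotted) of the normal diet (circles) and ketogenic diet (squares) library, with exact 95% intervals. The inducible sum and the pair share are higher with each tertile, and the constitutive sum is not.

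Cycling cells, those with at least 3 UMIs from at least 2 of 10 cell cycle genes such as Mki67 and Top2a, had a higher constitutive but no higher inducible sum in NK cells, CD8 T cells and macrophages. In NK cells the constitutive sum was 5757 and 4866 CPM in cycling and not cycling cells of the normal diet library and 5982 and 5196 in the ketogenic one. In CD8 T cells it was 5707 and 4969 CPM under the normal and 5882 and 5208 under the ketogenic diet. In macrophages it was 7448 and 6502 CPM under the normal and 7665 and 6893 under the ketogenic diet. The macrophage values rest on only 36 and 22 cycling cells in the normal and ketogenic diet library. The inducible sum was not higher in cycling cells: in NK cells it was 2285 and 2423 CPM under the normal and 2738 and 2745 under the ketogenic diet. In macrophages it was 2895 and 2969 CPM under the normal diet. Under the ketogenic diet it was lower in cycling macrophages, at 2541 CPM (2333 to 2762), than in the others, at 3204 CPM (3097 to 3313). Cycling cells were deeper, with medians of 9969 and 3790 UMIs in NK cells of the normal diet library. After thinning each cell to 1000 UMIs and calling cycling cells again, which left 93 and 153 cycling NK cells and 59 and 59 cycling CD8 T cells, against 237 and 335 and 102 and 140 at full depth, the log2 ratio of the constitutive sum in cycling over other cells was 0.14 and 0.16 in NK cells and 0.12 and 0.012 in CD8 T cells. Depth and the cells called cycling both changed in that step, so the part of each was not tested.

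Psmd1 was the constitutive gene that most often passed 1.5-fold in cycling cells, in NK cells and CD8 T cells of the normal diet library and in macrophages of the ketogenic one. It was 102 and 64.6 CPM in cycling and other NK cells and 88.1 and 52.8 in CD8 T cells of the normal diet library. Psmd13 in CD8 T cells and Psmd12 in macrophages of the normal and Psmd2 in macrophages of the ketogenic diet library passed as well. In those 3 classes 5.72%, 9.75% and 9.44% of all genes were at least 1.5-fold higher in cycling cells of the normal diet library and 15.1% in macrophages of the ketogenic one. The constitutive genes that passed were 1, 2 and 1 of 31 in the normal diet library. In macrophages of the ketogenic one they were 2 of 31. Each of these is a smaller share than that of all genes. In NK cells and CD8 T cells of the ketogenic diet library no inducible or constitutive gene passed, where 5.86% and 8.59% of all genes were higher. At full depth none of the 5 inducible genes passed in either direction and no constitutive gene was at least 1.5-fold lower. Of all genes, 2.01% and 1.56% were lower in cycling NK cells, 4.09% and 1.37% in cycling CD8 T cells and 14.2% and 18.2% in cycling macrophages. Cycling and other NK cells had Psmb9 at 319 and 278 CPM under the normal and 400 and 308 under the ketogenic diet. Psmb10, Psme1 and Psme2 were lower in cycling NK cells of both libraries. Thinned to 1000 UMIs, Psmb9 was 398 and 253 CPM under the normal and 516 and 329 under the ketogenic diet. That is a log2 ratio of 0.65 in both libraries, above 1.5-fold. In CD8 T cells it was 0.030 and 0.060 at full depth and -0.090 and -0.37 thinned.

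Across the 28 sums of 14 classes and 2 libraries, the 10 genes whose log2(CPM + 10) followed the mean of the 5 inducible genes most closely were Mif4gd (Pearson's r 0.887), Tmem134, Arl5a, Relb, Tank, Tmem176b, Il21r, Rbm42, Stx8 and Tmem176a (0.793), of 2881 genes with a mean of at least 50 CPM. Relb, a subunit of NF-kappa B, was 568 and 820.0 CPM in CCR7 dendritic cells. The points of a library share its depth and free RNA. Without the CCR7 class, 2 of the 10, Mif4gd and Stx8, stayed among the nearest 10, and Atp5mpl (0.899) and the interferon gene Ifi203 (0.881) led, so the order rests on that class.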

How the data were processed

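The deposited values were raw UMI counts per gene and barcode, unfiltered and not normalized. The submitters' processing notes name Cell Ranger 6.0.0, Seurat 3.2.0 and GRCm38 (mm10), while the file headers name Cell Ranger 4. Whether counting used strand is not given in the sources used here, so reads from Psmb8 and its antisense neighbour Gm20496, or Psmb10 and Gm16156, cannot be told apart where they overlap. The barcodes used held 500 UMIs and 300 genes or more, giving 35623303 and 39758619 UMIs in the normal and ketogenic diet library. Classes were gated on summed marker CPM. Barcodes passing gates of more than 1 lineage, 1003 and 1022 of them, were left out as possible doublets, and no doublet caller was run.

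UMIs were summed per class and library and given as CPM with exact Poisson intervals, shares with Clopper-Pearson intervals and diet ratios with conditional binomial intervals. These cover counting error only, and with 1 library per diet no p-value was computed. Called genes were at least 1.5-fold apart with 10 CPM added, among genes with at least 50 UMIs in the class. Named were the inducible genes and their partners, the members outside the core and cap, constitutive genes called between diets and the 3 largest and 3 smallest class ranges. Psma5, Psmb2, Psmd6 and genes named within counts were chosen after their values were seen. The members and all lists were chosen with earlier results of these data known. Of 19 partner genes 18 matched by symbol. Alternatives were other depth, gate, mixed-barcode, mitochondrial, free-RNA, thinning, centring, pseudocount and gene filters. The scripts (pandas 2.3.3, matplotlib 3.10.9, scipy 1.17.1 and numpy 2.4.6 on Python 3.11.15) were tested on simulated data.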

Additional observations from a re-analysis of the deposited data

How the results depend on the processing

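Of 290 values recomputed under alternative settings for shares, diet ratios, class ranges and states, 235 moved by less than the counting interval or, for counts of genes, by less than 1.5-fold, 55 moved further and 0 called values changed sign. Moved further were 11 of 96 shares, 7 of 82 inducible and 15 of 74 constitutive diet values, 14 of 28 class ranges and 8 of 10 tertile and cycling values. Diet ratios of the inducible and constitutive sums were below 1.5-fold in each large class, so none was called. Changes of sign among them are given below. No paired analysis was possible because each diet had 1 library, and for the same reason no replicate could be left out. Settings were planned except the inclusion of classes of at least 20 cells, which was chosen after seeing the data, as was the comparison of 1 class with the other 13. The cause of each shift was not tested.

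With cells thinned to 1000 UMIs, the immunosubunit share of the 3 pairs was 71.0% and 71.1% in macrophages, 72.6% in intermediate cells (normal diet), 82.3% in neutrophils (ketogenic diet; 76.3% at full depth), 72.0% and 72.6% in NK cells and 78.2% in CD8 T cells (normal diet). Stricter gates gave 72.5% in intermediate cells (ketogenic diet). Assigning mixed barcodes gave 71.1% in NK cells and 76.5% in other T cells (normal diet) and 76.6% in CD8 T cells (ketogenic diet).

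The log2 diet ratio of the 5 inducible genes summed was, after centring on the median gene, 0.13 in macrophages, 0.14 in monocytes and 0.27 in NK cells. Thinned, it was -0.0072 in monocytes, where the value at full depth was 0.056, 0.24 in CD8 T cells and 0.19 in the Rhox5 class, and with mixed barcodes assigned 0.16 in NK cells. That of the 31 constitutive genes was, thinned, 0.0058 in macrophages, 0.077 in monocytes, -0.056 in intermediate cells, where it was 0.029 at full depth, 0.094 in NK cells and 0.13 in CD8 T cells. Centred, it was 0.15, 0.19 and 0.12 in macrophages, monocytes and NK cells, and with mixed barcodes assigned 0.070 in monocytes and 0.041 in CD8 T cells. The 9 constitutive values at least 1.5-fold higher over the 8 classes became 5 with stricter gates and 16 with genes of at least 20 UMIs. The 1 lower value became 0 with mixed barcodes assigned and 2 when thinned or centred.

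The class range of the inducible sum, with stricter gates, thinned and with classes of at least 20 cells, was 1.85-fold, 2.05-fold and 4.15-fold in the normal and 1.68-fold, 1.72-fold and 6.40-fold in the ketogenic diet library. That of the constitutive sum in the normal diet library was 3.04-fold with cells of at least 1000 UMIs, 4.13-fold with stricter gates and 3.85-fold thinned. In the ketogenic diet library it was 2.16-fold, 3.03-fold and 2.77-fold under the same settings, 2.20-fold with mixed barcodes assigned and 3.24-fold with classes of at least 20 cells. Thinned cells were grouped again, and ties made the interferon groups unequal, with 473, 231, 320 and 936, 358, 449 NK cells from lowest to highest and no interferon UMI in the lowest. Between the highest and the lowest of these groups the pair share differed by 15.9 points in macrophages (normal diet), 16.3 in monocytes (ketogenic diet) and 11.3 and 7.64 in NK cells, and between cycling and other cells by -10.2 and -0.290 in CD8 T cells and -1.39 and -0.448 in NK cells. Depth limits neutrophils most, where 12 of the 31 constitutive genes were measured.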
